A study of Mus musculus with 6 samples.

Results

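Interleukin-17 (IL-17) type T cells were identified by their transcripts in the library labelled as Gli1+ cells of uninjured Achilles tendon. A member was a cell barcode with at least 1000 unique molecular identifiers (UMIs, each standing for 1 captured transcript), at least 200 genes, at most 5% mitochondrial UMIs, at least 1 UMI of Ptprc (the leukocyte surface protein CD45), at least 2 UMIs summed over Cd3d, Cd3e and Cd3g (the CD3 chains of the T cell receptor) and at least 3 UMIs summed over Il17a, Il23r, Scart1 and Blk. This rule held for 1352 cells, out of 7516 barcodes passing the filters in that library and 63329 in all 6 libraries. The comparison group, called other T cells, was the 1661 T cells of the same library with 0 UMIs of these 4 genes.

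The study sorted Gli1+ and Gli1- cells from the Achilles tendons of Gli1-CreERT2; Ai9 mice, in which tamoxifen switches on a red fluorescent reporter in cells that express Gli1, the transcriptional activator of hedgehog signaling. Tendons were uninjured, or were taken 7 or 21 days post injury (dpi) by tenotomy, from 8 mice per time point and 24 mice in all, of both sexes. All mice carried both alleles and received tamoxifen, and the label marks Gli1-expressing cells and their progeny. Each of the 6 combinations of time point and sort was 1 single-cell RNA library pooled over mice, so no spread between mice could be measured, no test was made, and each 95% interval below covers counting error only.

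IL-17 type T cells patrol skin, joints and other barrier and connective tissues. Many carry a gamma-delta T cell receptor and leave the thymus already able to release IL-17A and IL-17F, while others carry an alpha-beta receptor. Such gamma-delta cells respond to IL-23 and IL-1 without needing to be primed first.

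The uninjured Gli1+ library stood apart from the other 5. Ptprc was detected in 4298 of its 7516 barcodes (57.2%, 95% interval 56.1 to 58.3%), although the sort was for a mesenchymal lineage label and the submitters call the samples tendon cells. In the other 5 libraries 88 of 55813 barcodes held a Ptprc UMI, 5 were T cells by the same thresholds and 0 were IL-17 type, which allows a share of up to 0.00538%. Il17a gave 11853 UMIs over the barcodes passing the filters in the uninjured Gli1+ library and 0 over those of each other library. Gli1 itself was found at 1.94 counts per 1000000 UMIs (CPM) in IL-17 type T cells and 1.91 CPM in other T cells, and at 0.529 CPM (6 UMIs) and 0.336 CPM (4 UMIs) without the cells holding RNA of other cell types that are defined below. The reporter transcript is not in the gene table, so whether these leukocytes carried the label cannot be read from the counts, and Gli1+ below names the library only. Time point, sort and library cannot be told apart for these cells, and nothing below describes their response to injury.

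IL-17 type T cells made up 18.0% (17.1 to 18.9%) of the passing barcodes of their library, 31.5% of its leukocytes and 42.1% of its 3212 T cells. They held 14935018 UMIs, with a median of 8835.5 per cell (range 1077 to 88914) and 2814 genes. Other T cells held 14134323 UMIs, with a median of 7496 per cell (1195 to 53722) and 2424 genes. The median share of ribosomal protein transcripts was 19.8% in IL-17 type and 24.5% in other T cells, and that of mitochondrial transcripts 2.15% and 2.45%. IL-17 type T cells were thus the deeper group, and shares of cells with a transcript are given below also after each cell was thinned to 1500 UMIs.

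The 4 defining genes were first described on their own, with no ratio to other T cells, because they chose the cells. Il17a encodes the cytokine IL-17A and gave 11414 UMIs in 763 of the 1352 cells (56.4%). Il23r, the specific chain of the IL-23 receptor, was the most widespread, with 11190 UMIs in 1276 cells (94.4%). Blk, a Src-family kinase of B cells and IL-17 type gamma-delta T cells, gave 5340 UMIs in 1036 cells (76.6%). Scart1, a scavenger receptor family member of gamma-delta T cells, gave 7170 UMIs in only 565 cells (41.8%). Between 94.9% and 96.3% of each gene's UMIs over the barcodes passing the filters in this library lay in these cells. The rule chose the cells by these same UMIs, so these shares are largely set by it and are a description only. A UMI of Il17a was also found in 1.27% of Pdgfra-expressing cells without Ptprc, which should lack it, with 0.846% for Il23r, 1.99% for Scart1 and 0.846% for Blk. The source of these low counts was not tested.

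Most cells held more than 1 of the 4 genes. All 4 were detected in 331 cells, 3 in 446, 2 in 403 and 1 in 172. Leaving out Il23r would have kept 1058 of the 1352 cells, and leaving out any other single gene 1295 to 1336. The summed UMIs of the 4 genes had a median of 19.5, quartiles of 10 and 35 and a maximum of 149. Just inside the threshold, 43 cells had a sum of 3 and 49 a sum of 4, and just outside it 60 cells had a sum of 2 and 139 a sum of 1.

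**Figure D1:**
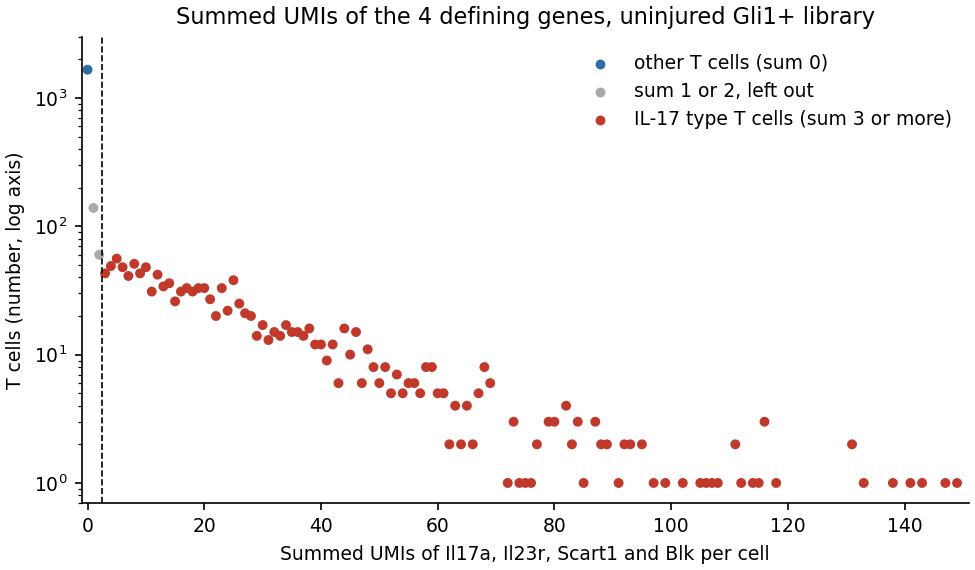
Number of T cells of the uninjured Gli1+ library (log axis) at each summed UMI count of Il17a, Il23r, Scart1 and Blk, with the threshold as a dashed line. Other T cells (sum 0) form a peak of 1661 cells, the 199 cells with a sum of 1 or 2 lie between, and the IL-17 type T cells extend to a sum of 149.

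Cxcr6, a chemokine receptor of tissue-resident lymphocytes, was the only one of the markers chosen for these cells that the rule left unused. It was chosen with earlier results of these data known, so its values are a description only. Its level was 397 CPM in IL-17 type and 39.8 CPM in other T cells, a log2 ratio of 3.32 (3.19 to 3.45). After thinning, 43.4% of IL-17 type T cells, 4.77% of other T cells and 0.243% of Pdgfra-expressing cells held a Cxcr6 UMI.

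Levels of genes outside the rule were followed along the summed UMIs of the defining genes. Cxcr6 was at 39.8 CPM in cells with a sum of 0, 108 at 1, 168 at 2, 288 at 3 and 460 in the 275 cells at 40 to 149. Il1r1, the receptor of IL-1, went from 28.7 CPM at 0 to 202, 348 and 604 at 1, 2 and 3, and reached 937 CPM in the cells at 40 to 149. Lef1, a transcription factor of naive T cells, took the opposite course, with 514 CPM at 0, 310 at 1, 102 at 2 and 29.6 at 3. Cells with a sum of 1 or 2, which are in neither group, had intermediate levels of all these genes. Cells with a sum of 4 did not follow this order, with 169 CPM of Lef1 (137 to 207) and 190 CPM of Cxcr6 (156 to 230). Trdc, the constant region of the delta receptor chain, was at 27.1 CPM in cells with a sum of 3 and at 697 CPM in those with 40 to 149. The sum itself includes Scart1 and Blk, which are known from gamma-delta T cells, so these Trdc values are a description only.

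**Figure D2:**
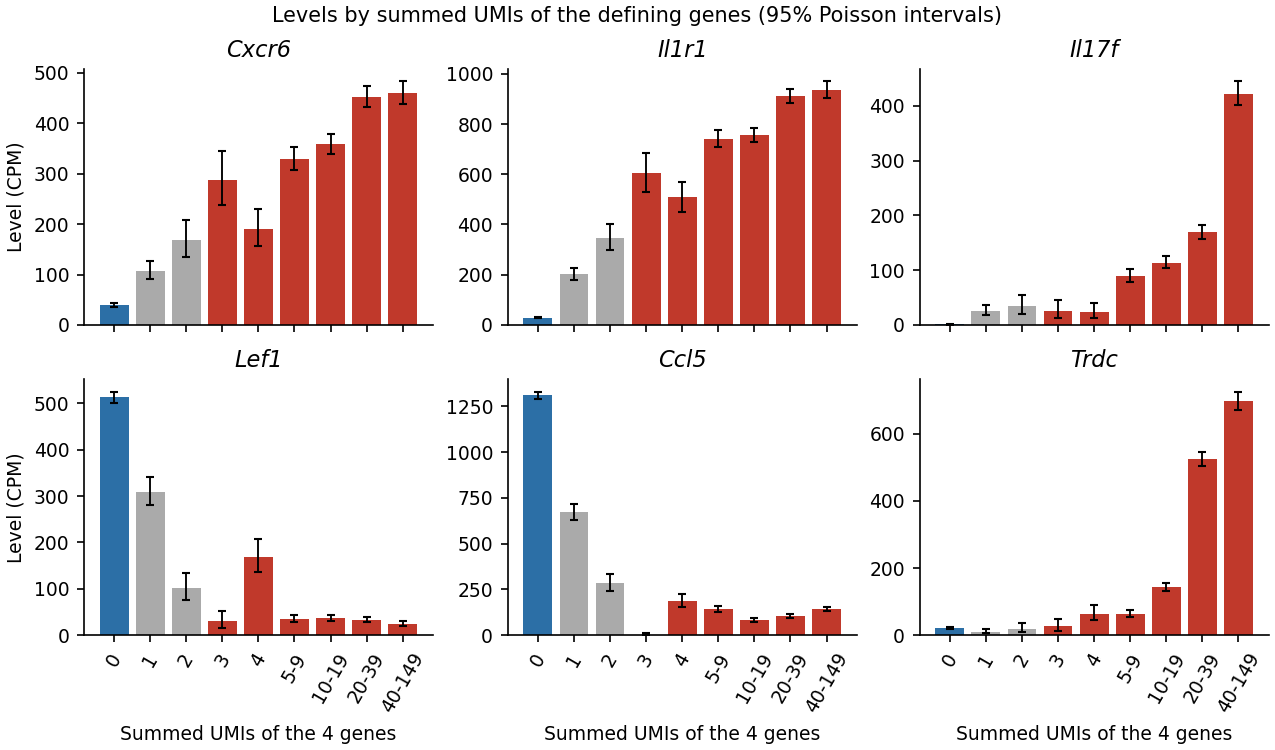
Levels in CPM (bars, with 95% Poisson intervals) of 6 genes outside the rule in T cells binned by the summed UMIs of the 4 defining genes; blue is a sum of 0, gray 1 or 2 and red 3 or more. Cxcr6 and Il1r1 are highest in the bins of 20 or more, Lef1 and Ccl5 are highest at a sum of 0, and Trdc is above 500 CPM only in the bins of 20 or more.

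Over all genes, 15361 had at least 20 UMIs in the pools of IL-17 type and other T cells together. A gene was called higher or lower where the log2 ratio of its summed CPM was at least 1 or at most -1. By this rule 1560 genes (10.2%) were higher in IL-17 type T cells and 1074 (6.99%) were lower, and the median log2 ratio was 0.06. These shares are the background for the gene groups that follow.

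Cytokine genes were ordered first. Il17f, the partner cytokine of IL-17A, ranked highest of all genes outside the rule by the interval bound nearest to 0, though not by the ratio itself. It was at 193 CPM in IL-17 type and 1.27 CPM in other T cells (log2 ratio 7.24, 6.58 to 8.00). Il22, a cytokine acting on epithelium, was at 66.8 and 1.49 CPM (5.49, 4.87 to 6.19). Csf2, which encodes GM-CSF, was at 12.7 and 3.04 CPM (2.06, 1.57 to 2.57). Tnfsf11, the osteoclast-inducing ligand RANKL, was at 84.0 and 33.9 CPM (1.31, 1.16 to 1.46). Furin, a protease that processes secreted proteins, was at 817 and 100.04 CPM (3.03, 2.95 to 3.11), and Areg, an epidermal growth factor receptor ligand associated with repair, at 196 and 89.6 CPM (1.13, 1.03 to 1.23), which missed the threshold after thinning (0.95) and when cells with 1 UMI of the rule genes joined the comparison group (0.96). Some cytokines of other T helper types were lower. Ifng, the type 1 cytokine, was at 8.57 and 107 CPM (-3.65, -3.92 to -3.39), and Il4 at 0.870 and 8.21 CPM (-3.24, -4.19 to -2.41). Of 19 cytokine and secreted product genes measured, 8 were higher, 4 lower and 7 neither, with a median log2 ratio of 0.67. Tnf (0.88), Tgfb1 (0.67) and Il10 (-0.42) were among the 7.

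Transcripts of IL-17A and IL-17F were often detected in the same cells. Il17f was found in 422 cells (31.2%), of which 373 also held Il17a, and 49 held Il17f without Il17a. Seen from the other side, 48.9% of the 763 Il17a cells held Il17f and 88.4% of the 422 Il17f cells held Il17a. Il22 was found in 129 cells (9.54%), and 54 cells held all 3 transcripts. In 507 cells (37.5%) none of the 3 was detected, so membership there rested on Il23r, Scart1 or Blk. After thinning, Il17a was found in 34.3%, Il17f in 16.1% and Il22 in 4.29% of cells, and none of the 3 in 59.7%. Then 34.5% of the 464 Il17a cells held Il17f, and 73.7% of the 217 Il17f cells held Il17a. Detection in the same cell also depends on depth and, for Il17a, on the rule.

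The proximal promoters of Il17a and Il17f are shown because these neighboring genes gave the cytokine transcripts that mark the cells. The sequences are those of RefSeq on build GRCm38.p6, from 250 bases before to 50 bases after the annotated start, printed in the direction of transcription. Capitals mark AGGTCA or its reverse complement TGACCT, a core of the sites bound by several nuclear receptors. Il17a lies at chr1:20730655-20730954 on the plus strand, with the match beginning 120 bases before the start. Il17f lies at chr1:20784221-20784520 on the minus strand, with the match beginning 58 bases before it.
Il17a: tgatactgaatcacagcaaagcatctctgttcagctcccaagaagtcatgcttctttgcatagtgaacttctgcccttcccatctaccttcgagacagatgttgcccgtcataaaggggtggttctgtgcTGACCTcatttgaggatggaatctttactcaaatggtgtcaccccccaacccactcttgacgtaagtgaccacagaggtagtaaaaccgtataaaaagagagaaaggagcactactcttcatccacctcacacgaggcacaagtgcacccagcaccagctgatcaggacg
Il17f: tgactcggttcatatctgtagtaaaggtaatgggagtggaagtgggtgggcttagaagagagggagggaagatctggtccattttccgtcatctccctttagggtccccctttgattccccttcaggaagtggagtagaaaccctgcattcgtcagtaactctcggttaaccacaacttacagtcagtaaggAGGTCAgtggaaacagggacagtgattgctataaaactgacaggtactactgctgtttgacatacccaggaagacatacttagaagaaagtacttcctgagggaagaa
Each window held 1 match, on opposite strands relative to transcription. The same 6 letters, searched on both strands, occurred in 5340 of 32851 promoter windows of this length (16.3%), and in 3 of the 12 genes with a RefSeq window among the 15 that ranked highest by their ratio (Il17f, Tdrd9 and Cryba4). A match in letters is not a measured binding site.

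Regulators of the type 17 program were measured next. Sox13, a factor of IL-17 type gamma-delta T cells, was at 45.5 CPM in IL-17 type and 2.19 CPM in other T cells (log2 ratio 4.38, 3.86 to 4.95). Zbtb16, encoding the innate-like lymphocyte factor PLZF, was at 628 and 81.0 CPM (2.96, 2.87 to 3.05), Ikzf3, encoding Aiolos, at 1411 and 233 CPM (2.60, 2.54 to 2.65) and Rora at 2115 and 543 CPM (log2 ratio 1.96). Maf, Batf and Stat3 were nearer to equal, with log2 ratios of 0.45, 0.05 and 0.28. Id2 (1.54), Bhlhe40 (1.30), Rbpj (1.16) and Irf4 (1.12) were past the threshold without cells holding RNA of other cell types. With all cells kept, Satb1, a chromatin organizer of thymocytes and naive T cells, was the 1 gene of the list that was lower (-1.44, -1.48 to -1.39). In all, 8 of 20 regulators were higher, 1 was lower and 11 were neither, with a median of 0.64. Without cells holding RNA of other cell types 9 were higher and 2 lower, Sox4 (-1.95, on 18 and 73 UMIs) beside Satb1.

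Several cytokine receptor chains were higher and others lower. Il1r1 was at 828 CPM in IL-17 type and 28.7 CPM in other T cells (4.85), and a UMI remained in 61.8% and 3.32% of cells after thinning. Il17re, a chain of the IL-17C receptor, was at 62.1 and 1.27 CPM (5.61, 4.94 to 6.37). Il2ra, the alpha chain of the IL-2 receptor, was at 425 and 46.4 CPM (3.20, 3.08 to 3.31), Il18r1 at 594 and 160 CPM (1.89) and Il7r, the receptor for the survival cytokine IL-7, at 755 and 285 CPM (1.41). Il12rb1, the chain shared by the IL-12 and IL-23 receptors, was higher (2.28, 1.91 to 2.67), whereas Il12rb2, the chain specific to IL-12, was at 4.08 and 65.9 CPM (-4.01, -4.41 to -3.64). Il1rl1, the IL-33 receptor, was at 4.95 and 18.3 CPM (-1.89), and Il6ra at 21.4 and 92.9 CPM (-2.12). Il18rap (0.31) and Il2rg (0.33), the partner chains of the IL-18 and IL-2 receptors, were neither. Of 25 cytokine receptors, 8 were higher, 7 lower and 10 neither, so the list median of 0.23 hides ratios on both sides.

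Homing receptors were divided in the same manner. Ccr6, which binds CCL20, was at 71.2 CPM in IL-17 type and 6.86 CPM in other T cells (3.37, 3.07 to 3.69). Ccr2, a receptor for inflammatory recruitment, was at 228 and 28.7 CPM (2.99, 2.84 to 3.15), Ltb4r1, the leukotriene B4 receptor, at 74.4 and 5.80 CPM (3.68, 3.36 to 4.02), and Ccr10, a skin-homing receptor, at 28.4 and 2.12 CPM (3.74, 3.21 to 4.33). The lymph node homing receptor Ccr7 was low, at 29.3 and 260 CPM (-3.15, -3.29 to -3.00). Klf2 (-1.53) and S1pr1 (-1.54), a regulator and a receptor of exit into blood, were lower too. In this list 7 of 25 genes were higher, 8 lower and 10 neither.

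**Figure D3:**
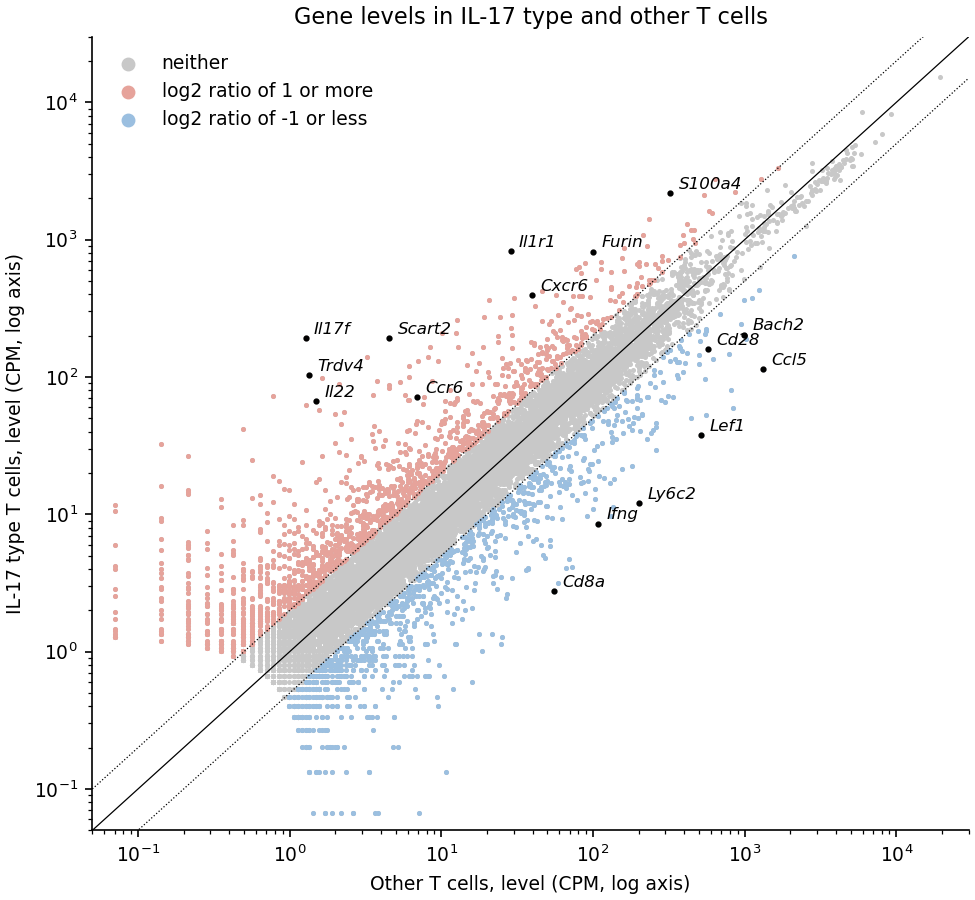
Level of each gene with at least 20 UMIs over both pools and at least 1 in each, in other T cells (horizontal) and IL-17 type T cells (vertical), in CPM on log axes, without the 4 defining genes; dotted lines mark a 2-fold ratio. Il17f, Il22, Il1r1 and Cxcr6 lie far above the upper dotted line, and Lef1, Ccl5 and Cd8a far below the lower one.

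Genes of gamma-delta T cells were described next. Of 21 gamma-delta receptor genes, 13 had enough UMIs to be measured, and their log2 ratios ran from 1.74 to 6.26 (median 3.58). A gene with few UMIs in other T cells could pass this filter only through the IL-17 type pool, as Trgv3 did with 47 and 0 UMIs, so the count of 13 is a description only. Trdv1, which went the other way with 2 and 12 UMIs, did not pass. Among the measured genes, Trdv2-2 rested on 16 and 4 UMIs and turned from 1.92 to -0.29 after thinning. Trdc was at 366 and 20.5 CPM (4.16, 3.99 to 4.33), Trgc1 at 92.3 and 5.38 CPM, and Trgc2 at 130 and 9.48 CPM. The gamma constant genes are near-identical copies, so the split of reads among them is uncertain. Of 29 genes listed for IL-17 type gamma-delta T cells, 23 were higher, 1 was lower and 5 were neither, with a median of 2.41. The rule chose cells by Scart1 and Blk, themselves genes of such cells, so this count and median are also a description only. Among them were Kcnk1, a potassium channel, at 73.0 and 0.778 CPM (6.55, 5.71 to 7.56), Scart2, a paralog of the rule gene Scart1, at 193 and 4.53 CPM (5.41, 5.06 to 5.80), Tmem176a at 373 and 30.1 CPM (3.63) and S100a4 at 2178 and 323 CPM (2.75). Ramp1, part of the receptor for the neuropeptide CGRP, was at 257 and 53.0 CPM (2.28), while its partner Calcrl was at 31.5 and 67.4 CPM (-1.10). The gene of the list that was lower was Ly6c2, at 12.1 and 200 CPM (-4.05, -4.27 to -3.83).

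Transcripts of conventional alpha-beta T cells were present, and some were lower. Of 6 alpha-beta receptor and coreceptor genes 4 were lower and 2 neither, and 3 were lower without cells holding RNA of other cell types. Trac, the alpha constant region, was at 152 CPM in IL-17 type and 307 CPM in other T cells (-1.01, -1.08 to -0.94), and at a ratio of -0.96 without cells holding RNA of other cell types, which misses the threshold. Trbc1 (-0.79) and Trbc2 (-0.62) missed it in all cells. Coreceptors differed more, with Cd8a at 2.75 and 55.0 CPM (-4.32, -4.81 to -3.87) and Cd4 at 23.4 and 98.9 CPM (-2.08, -2.26 to -1.91). The costimulatory receptor Cd28 was at 160 and 573 CPM (-1.84), Cd27 at 17.01 and 130 CPM (-2.94) and Themis, a signaling adaptor of alpha-beta T cell selection, at 96.4 and 549 CPM (-2.51). Cd44, the adhesion receptor of antigen-experienced cells, was the 1 of 20 receptor signaling genes that was higher (1290 and 414 CPM, 1.64), against 10 lower and 9 neither.

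Naive and cytotoxic gene groups were low, whereas regulatory and type 2 genes were mixed. Of 15 naive and central T cell genes 13 were lower and 0 higher, with a median of -1.53, and Lef1 was at 37.6 and 514 CPM (-3.77, -3.90 to -3.65). Of 22 cytotoxic and type 1 genes 19 were lower, with a median of -2.55. These included Ccl5 (115 and 1311 CPM, -3.51), Eomes (4.15 and 72.4 CPM, -4.12) and Gzma (-4.30), whose 355 UMIs in other T cells came from 19 cells and included 120 from 1 cell. Klrk1, the activating receptor NKG2D, was the exception in this list, at 127 and 61.1 CPM (1.05, 0.94 to 1.17), a ratio that missed the threshold with TMM scaling of the pools (0.99). Of 14 regulatory T cell genes 2 were higher (Il2ra and Capg) and 5 lower, with Foxp3, the factor that defines the lineage, at 6.43 and 16.1 CPM (-1.33), and at a ratio of -0.997 where a summed count of 2 sufficed. Checkpoint genes were lower in 7 of 12, with Havcr2 the 1 higher gene (3.06). Type 2 genes were 3 higher and 4 lower of 11, and Gata3 was near equal (-0.08, -0.19 to 0.03).

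**Figure D4:**
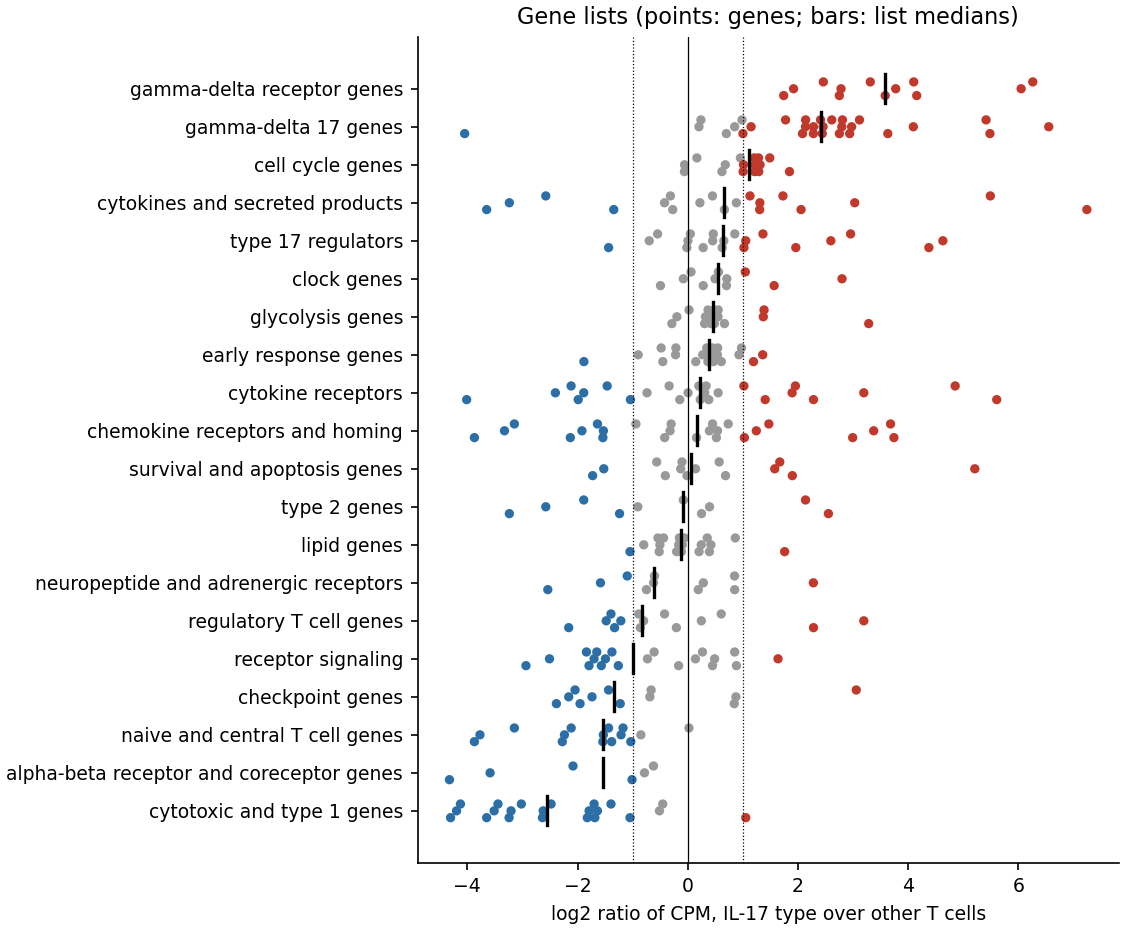
Log2 ratio of CPM, IL-17 type over other T cells, for the genes of 20 lists (points; red at or above 1, blue at or below -1) with list medians as bars; genes with 0 UMIs in a pool and the defining genes have no point. Gamma-delta receptor and gamma-delta 17 genes have the highest medians (3.58 and 2.41), and cytotoxic and type 1 genes the lowest (-2.55). The rule used Scart1 and Blk, so the gamma-delta medians are a description only.

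State and metabolism genes were described next. Of 16 cell cycle genes 10 were higher and 0 lower (median 1.11), but only 5 were higher when cells holding RNA of other cell types, as defined below, were left out, and Ccna2 turned from 1.49 to -0.12 after thinning. Mki67, a marker of dividing cells, was at 112 and 44.9 CPM (1.31, 1.18 to 1.45) and was found in 194 IL-17 type and 75 other T cells (5.18% and 1.51% of thinned cells), whereas the replication genes Pcna (-0.06) and Mcm6 (-0.06) were near equal. Of 16 glycolysis genes 3 were higher and 13 neither, with Hk2, a hexokinase, at 284 and 29.2 CPM (3.28, 3.14 to 3.43). Of 19 lipid genes 1 was higher, 1 lower and 17 neither, the higher one being the lipid droplet gene Plin2 (1.76). Of 20 early response genes, which are induced by stimulation and by tissue dissociation, 2 were higher (Fosb and Nr4a1), 1 lower and 17 neither. Without cells holding RNA of other cell types 5 were higher (also Atf3, Nfkbia and Egr1) and 2 lower. Of 14 survival genes 4 were higher and 2 lower. Bcl2a1a, a gene of a near-identical family of inhibitors of cell death, was at 57.6 and 1.56 CPM (5.21), and the pair Bcl2 (-1.52) and Bcl2l11 (-1.73) was lower. The clock gene Nr1d1, which encodes a transcriptional repressor, was at 79.8 and 11.5 CPM (2.80, 2.56 to 3.05). It was 1 of 3 higher clock genes of 11. Of 11 neuropeptide, prostaglandin and adrenergic receptor genes, 1 was higher and 3 lower.

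The 15 genes that ranked highest outside the rule included several from none of these lists. Beside Il17f, Kcnk1, Trdv4, Scart2, Il17re, Il22 and Ly6g5b, they were Shank2, a synaptic scaffold (32.3 and 0.142 CPM), Tdrd9 (26.4 and 0.212 CPM), Cryba4 (41.5 and 0.495 CPM), Cdh10, a cadherin (98.4 and 1.63 CPM), Ppp1r14c (140 and 3.25 CPM), Lingo4 (16.1 and 0.142 CPM), Prr29 (11.7 CPM, with 1 UMI in other T cells) and Fstl4 (88.2 and 2.12 CPM). Each was found in at least 129 IL-17 type T cells. The 15 lowest included Cd8a, Ly6c2, Eomes, Lef1, Gzma and Il12rb2 with values as above. They also included Gm2682 (59.5 and 833 CPM), Mctp2 (9.71 and 130 CPM), Bend4 (3.15 and 59.0 CPM), Samd3 (1.14 and 24.6 CPM), Gm47782, 1700062C10Rik, ENSMUSG00000121360 and Dct. Dct, a melanocyte gene, rested on 1 cell, which held 97 of its 100 UMIs in other T cells.

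RNA of other cell types was present in both groups. Summed markers of fibroblasts and tendon cells were at 1863 CPM in IL-17 type and 1268 CPM in other T cells (0 of 7 markers called), epidermal markers at 212 and 124 CPM (1 of 3 higher), macrophage markers at 151 and 256 CPM (0 of 5 called), antigen-presenting markers at 418 and 306 CPM (0 of 3) and endothelial markers at 197 and 213 CPM (0 of 3). The B cell marker Cd79b was at 14.998 and 2.62 CPM, and the other 3 B cell markers had too few UMIs to be measured. Of the remaining markers, 2 of 3 natural killer cell and 1 of 4 red cell markers were lower, 1 of 3 mast cell markers was higher, and 0 of 2 neutrophil and 0 of 2 muscle markers were called. The part of this RNA in the differences between the groups was not tested beyond the values that follow. Cells holding RNA of other cell types were those with at least 10 UMIs of fibroblast, endothelial, macrophage, antigen-presenting and epidermal markers, Pecam1 left out. They were 163 IL-17 type T cells (12.1%) and 131 other T cells (7.89%), and these cells carried 93.4% and 90.6% of such UMIs. A typical cell of either group held 2. Without these cells the ratios were 3.56 for Cxcr6, 5.15 for Il1r1 and -4.04 for Lef1, and Abi3bp, an extracellular matrix gene on the gamma-delta 17 list, moved from 2.81 to 5.57. Among the other higher genes named above, the ratios that rose by over 1.5-fold were those of Sox13 (to 5.65), Ltb4r1 (4.76), Nr1d1 (4.32), Hk2 (4.29), Bcl2a1a (6.59), Plin2 (2.67), Shank2 (8.81), Cdh10 (6.94) and Ppp1r14c (7.14). Krt15, the higher epidermal marker, went from 1.54 to 0.65.

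IL-17 type T cells were divided by the receptor constant genes detected in them. These transcripts do not establish which receptor a cell carries. By detected constant regions, 471 (34.8%, 32.3 to 37.4%) held Trdc without Trac, 527 (38.98%, 36.4 to 41.6%) Trac without Trdc, 207 (15.3%) both and 147 (10.9%) neither. Among other T cells these shares were 3.37%, 80.1%, 2.23% and 14.3%. After thinning, 28.1% of IL-17 type T cells held Trdc alone, 16.9% Trac alone, 1.9985% both and 53.0% neither, so that the order of the Trdc and Trac classes turned with depth and neither class is called the larger. In other T cells thinning left 2.36% with Trdc alone and 35.4% with Trac alone. In Pdgfra-expressing cells, which should hold neither, Trdc was found in 0.0607% and Trac in 0.182% of thinned cells.

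The Trdc cells and the Trac cells among the IL-17 type T cells were set against each other, a comparison chosen after the values were seen. Of 12957 genes with at least 20 UMIs over both pools, 346 (2.67%) were higher in Trdc cells and 802 (6.19%) were lower. The receptor genes Il1r1 and Cxcr6 were similar in both classes, with Il1r1 at 939 CPM in Trdc and 767 CPM in Trac cells (0.29) and Cxcr6 at 448 and 365 CPM (0.30). The defining genes chose the cells, and their levels are given with no ratio. Il23r was at 782 and 716 CPM, Il17a at 1410 and 312 CPM and Scart1 at 1046 and 19.9 CPM.

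Receptor segments were among the 15 highest-ranked genes of the Trdc cells. Trdv4, a delta variable segment, was at 235 CPM in Trdc and 0.802 CPM in Trac cells, where its 5 UMIs came from 0.19% of cells. Trgv6, the gamma segment with which it pairs in the Vgamma6 T cells of skin dermis, joints and mucosa, was at 20.3 and 0.481 CPM (5.40, 3.81 to 7.70). It rested on 92 and 3 UMIs. Both segments passed the count minimum only through the Trdc pool. The classes were split by Trdc and Trac, so levels of delta and alpha segments by these classes, here and below, are a description only. Some other gamma genes were also found in Trac cells, with Trgc2 at 155 and 102 CPM, Trgc4 at 88.0 and 51.8 CPM and Trgv4 at 4.85 and 5.13 CPM. Trgc1 differed more, at 172 and 37.7 CPM. Sox13 was at 89.3 and 6.58 CPM (3.76, 3.30 to 4.26), Ccr10 at 51.8 and 7.38 CPM (2.81, 2.35 to 3.30) and Scart2 at 313 and 93.2 CPM (1.75, 1.61 to 1.89). Il17f was at 317 and 109 CPM (1.54, 1.41 to 1.67) and Areg at 334 and 121 CPM (1.47). Among the 15 highest genes, Calm4 (205 of 215 UMIs), Klk1 (37 of 39), Krt2 (77 of 82) and Ly6d (162 of 286) rested mostly on 1 cell.

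Trac cells held more transcripts of the conventional T cell signaling apparatus. Lck, the kinase that starts receptor signaling, was at 11.5 CPM in Trdc and 239 CPM in Trac cells (-4.38, -4.81 to -3.98), Cd28 at 15.7 and 285 CPM (-4.19, -4.55 to -3.84), Themis at 9.48 and 162 CPM (-4.10), the inhibitory receptor Btla at 1.98 and 55.2 CPM (-4.80) and the costimulatory receptor Tnfrsf4 at 1.54 and 49.2 CPM. Cd4 was at 3.09 and 41.7 CPM (-3.76, -4.65 to -2.98), and Cd247, the zeta chain of the receptor complex, went the other way at 456 and 136 CPM (1.74). Il22 was lower in Trdc cells, at 28.9 and 105 CPM (-1.87, -2.15 to -1.59), opposite to Il17f. Zbtb16 was also lower in Trdc cells (371 and 843 CPM, -1.18). Traj18, the alpha joining segment used by invariant natural killer T cells, was at 1.76 and 36.1 CPM, values that the split by Trac bears on. In the comparison with other T cells Traj18 was lower in IL-17 type T cells, at 20.2 and 42.2 CPM. Ccl21a, the lowest-ranked gene, rested on 1 Trac cell with 255 of 258 UMIs. Without cells holding RNA of other cell types, the ratios of Trdc over Trac cells were 6.79 for Trgv6, 4.38 for Sox13 and -5.60 for Btla. Those of Ccr10 (2.74) and Cd28 (-4.27) stayed nearer to the values given.

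**Figure D5:**
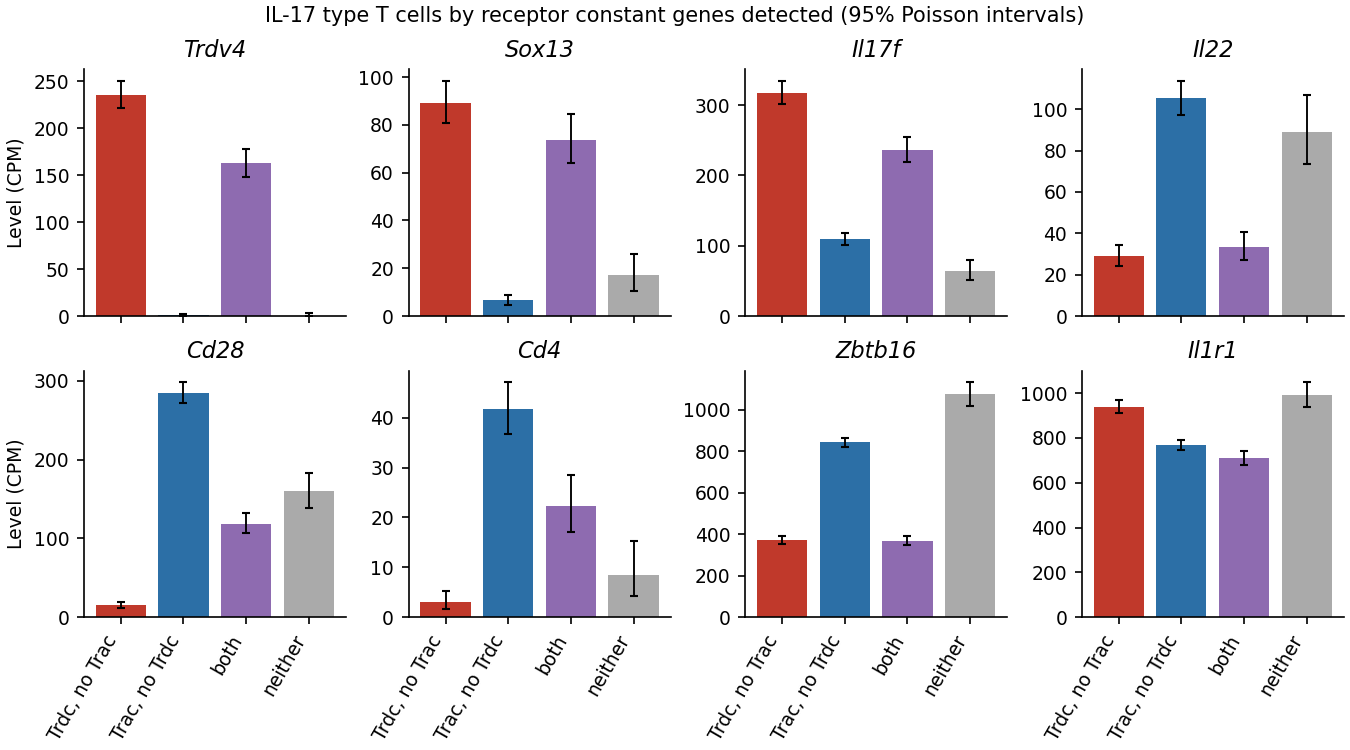
Levels in CPM (bars, with 95% Poisson intervals) of 8 genes in IL-17 type T cells grouped by detected receptor constant genes: Trdc without Trac (471 cells), Trac without Trdc (527), both (207) and neither (147). Trdv4, a delta segment whose level follows the split by Trdc, and Sox13 are high where Trdc was detected. Levels of Il22 and Zbtb16 are higher without Trdc, and Il1r1 stays between 710 and 993 CPM in all 4 classes. An Il22 UMI was held by 6.79% of cells with Trdc alone, 13.5% with Trac alone, 8.21% with both and 6.12% with neither.

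Cells with both constant regions resembled the Trdc class in several genes, with Trdv4 at 163 CPM, Sox13 at 73.8 CPM and Zbtb16 at 369 CPM, but held 119 CPM of Cd28. Cells with neither had 0 UMIs of Trdv4 and 1075 CPM of Zbtb16. The paralogs Scart1 and Scart2 split the cells further, again by a choice made after seeing the values and partly by a rule gene. Scart1 alone was found in 379 cells, Scart2 alone in 335, both in 186 and neither in 452. Trdv4 was at 386 CPM in cells with Scart1 alone, 27.9 CPM with both, 1.78 CPM with Scart2 alone and 0.628 CPM with neither. Trgv6 was at 34.1 CPM with Scart1 alone and 2.05 CPM with both, and had 3 UMIs in each of the other classes. Il17f ran otherwise, at 68.7 CPM with Scart1 alone, 307 CPM with Scart2 alone, 325 CPM with both and 130 CPM with neither. Il22 was highest without either paralog, at 133 CPM, against 22.5 CPM with Scart1 alone. An Il22 UMI was held by 12.6% and 8.97% of these cells. Because cells without Scart1 had to enter through Il17a, Il23r or Blk, the rule bears on these levels, and they are a description only.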

How the data were processed

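Single cells of 6 libraries were counted, and the uninjured Gli1+ library is described. The deposited values are counts, the UMIs per gene and barcode that the authors obtained with Chromium Single Cell 3 prime v3 kits, without normalization and before cell filters. The submitters' processing notes name Cell Ranger 3.1.0, STAR and mm10, whereas the file headers name Cell Ranger 9.0.0; the annotation release of the 33696 genes is not given in the sources used here. Libraries held 72196599 to 135202247 UMIs. All matrix columns were used.

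The members and gene lists were chosen with earlier results of these data known. Genes named are the rule genes, markers and fixed list members with at least 20 UMIs over both pools, and the 15 highest and 15 lowest genes by the interval bound nearest to 0; some of these genes are not reported here, and bins and receptor classes were added later. UMIs were summed per group and scaled to 1000000 (CPM). Log2 ratios carry exact binomial intervals of the counts given their sum, levels exact Poisson intervals, and shares exact Clopper-Pearson intervals at 95%; all cover counting error only. A count of 0 allows up to 3 counts. Shares were recomputed after thinning each cell to 1500 UMIs (1351 IL-17 type, 1656 other T and 1647 Pdgfra cells without Ptprc, with 1, 5 and 8 shallower cells left out; median depths before thinning 8835.5, 7496 and 9055). Scripts were tested on simulated data. Scores of Scrublet in scanpy 1.11.5, at 0.8% per 1000 barcodes, served as an alternative for doublets, which were otherwise kept; DoubletFinder was not run. The Scrublet step took out 452 of 7516 barcodes, of which 155 were IL-17 type (11.5%) and 111 other T cells (6.68%). Between 27 and 44 barcodes of each other library occurred in this library too, and 29 members had such a barcode. Scaling by TMM was done with edgeR 4.0.16 (R 4.3.3), which had no other use. Python 3.11.15 with numpy 2.4.6, scipy 1.17.1 and pandas 2.3.3 was used. Alternatives changed the rule threshold, comparison cells, cell filters, doublets, shared barcodes, scaling, weight of cells, depth and the count minimum; leaving out cells with RNA of other cell types was chosen after seeing the data.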

Additional observations from a re-analysis of the deposited data

Results flagged for a closer look

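Apart from the Pdgfra-expressing ones of the uninjured Gli1+ library, barcodes without Ptprc formed no group above. In those passing the filters, transcripts of 2 genes that mark IL-17 type T cells were above the uninjured library in some injured libraries. Trdc was at 18.8 CPM (18.0 to 19.6) in the 10692 such barcodes of Gli1+ cells at 21 dpi and at 4.90 CPM in those of uninjured Gli1+ cells, while it was at 4.08 CPM (3.70 to 4.48) at 7 dpi. At 21 dpi 551 barcodes (5.15%) held a UMI. In Gli1- barcodes Trdc was at 0.0479 CPM uninjured, 4.53 CPM at 7 dpi and 19.95 CPM (19.1 to 20.8) at 21 dpi, where 701 of 12013 barcodes (5.84%) held a UMI. Il23r was at 4.62 CPM (4.24 to 5.04) in Gli1- barcodes at 21 dpi and 0.0319 CPM uninjured. In Gli1+ barcodes it was at 3.32 CPM at 21 dpi, below the 7.47 CPM of the uninjured library, where T cells were present. Il17a and Cd3e had 0 UMIs in the Gli1+ library at 21 dpi, against 9.71 and 2.67 CPM in the uninjured one, and Il17a had 0 UMIs in all 3 Gli1- libraries. A UMI of the fibroblast receptor gene Pdgfra was held by 83.8% of the Trdc barcodes at 21 dpi in the Gli1+ and 82.9% in the Gli1- library, against 55.2% and 52.4% of all barcodes without Ptprc.

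Scart1 and Trac went opposite ways in the 2 sorts. In Gli1- barcodes Scart1 was at 0.318 CPM at 21 dpi (36 UMIs) with 0 UMIs uninjured, and Trac was at 1.16 CPM at 7 dpi and 1.20 CPM at 21 dpi, against 0.559 CPM uninjured. In Gli1+ barcodes Scart1 was at 6.67 CPM uninjured and 0.0720 CPM at 21 dpi. Trac in the Gli1+ barcodes was at 2.07 CPM uninjured, 0.927 CPM at 7 dpi and 0.775 CPM at 21 dpi. T cells were present in the uninjured Gli1+ library, whose barcodes without Ptprc also held Il17a and Cd3e at 9.71 and 2.67 CPM. The part of T cell RNA in its Scart1 and Trac values was not tested. With 1 library per condition none of these differences was tested, and which transcripts or cells gave the counts was not tested.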

How the results depend on the processing

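The number of IL-17 type T cells was 1412 with a summed count of at least 2, 1260 with at least 5, 1197 without Scrublet doublets and 1189 without cells holding 10 or more UMIs of other cell types; it was 1323 to 1358 under the other settings. Thinning moved the share with Trdc alone to 28.1% and with Trac alone to 16.9%, since fewer UMIs were read per cell. Genes called higher numbered 1023 after thinning, 914 (573 lower) with at least 100 UMIs over both pools and 3466 (3237 lower) with no filter on low counts. Under every other setting run, the counts stayed within 1.5 times the main ones. Between Trdc and Trac cells, 198 genes were higher and 343 lower after thinning, and 98 and 250 with at least 100 UMIs. Without cells holding RNA of other cell types 439 were higher and 574 lower.

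Of 197 called ratios of named genes (196 without Scrublet doublets), 186 (thinning) to 197 (the study's further cell filters) were still called under each alternative. Ratios left the counting interval of the value given for 206 of 374 named genes after thinning, 165 with the mean over cells, 146 without cells holding RNA of other cell types and 132 of 373 without Scrublet doublets, and for 0 to 56 under the other settings. Ratios that changed sign included those of Fabp4 (0.16 without Scrublet doublets), Trdv2-2 (-0.29 after thinning) and Ccna2 (-0.12 after thinning). Several fibroblast and epidermal markers, which were used to define the cells with RNA of other cell types, turned from positive to negative without those cells. Examples were Lum (-0.38), Krt5 (-0.43) and Krt14 (-0.43). The cause was not tested. TMM scaling shifted all ratios by -0.07. Depth limits the low genes, whose ratios rest on few UMIs. No paired analysis over mice was possible because the groups of T cells compared come from 1 library pooled over mice.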
